A study of Mus musculus with 7 samples.

Results

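The Skint genes were followed across knockout and wild-type mouse tissue before and after topical treatment. Of 10 listed family members, Skint2, Skint3, Skint4, Skint7, Skint9, Skint10 and Skint11 had a probe set carrying their name and no other, 7 genes among 19937 genes measured in all. Skint1, Skint5 and Skint6 had no such probe set and were not analysed here. Each of the 7 genes had 1 probe set, so the rule of taking the brightest of several was never needed. The family was chosen by values of these same arrays, among which the day change of Skint10 was already known, so that change is given as a description with no test.

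Skint genes encode membrane proteins of the immunoglobulin superfamily, related to the butyrophilins. They take their name from the selection and upkeep of intraepithelial T cells. In mouse, Skint1 of the thymic epithelium is required for the development of dendritic epidermal T cells, the gamma delta T cells that live between keratinocytes. Skint2, also known as B7S3, has been described in mouse as an inhibitor of T cell activation. Skint3 and Skint9 have been studied in mouse as products of keratinocytes at the edge of healing wounds, next to dendritic epidermal T cells. The roles of Skint4, Skint7, Skint10 and Skint11 are less well known.

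RNA was hybridised to 7 Affymetrix arrays. Day 6 had 2 arrays of Iqgap1 knockout (KO) and 2 of wild type (WT), and day 0 had 2 KO arrays and 1 WT array. All mice were of a mixed C57BL/6 and 129 background, and topical 4OHT (4-hydroxytamoxifen, a ligand that switches on tamoxifen-dependent proteins) is the agent in every label, with 0 or 6 days of treatment. The labels name neither the organ, nor a tamoxifen-dependent protein, nor the age of the mice, nor whether the replicates came from separate mice. P-values thus reflect only how far these samples spread, which may be technical variation.

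Values are log2 expression values, so a difference of 1 is a doubling of signal. Array medians lay between 5.61 and 5.79. Iqgap1, the deleted gene, read 8.58 and 8.67 (KO) and 10.11 and 10.59 (WT) on day 6, against 9.02 and 8.99 (KO) and 9.94 (WT) on day 0, with every KO array below every WT array; the position of its probe set relative to the deleted part was not used here. Xist signal marked replicate 1 of wild type on both days (10.30 at day 6 and 11.15 at day 0, against 3.55 to 4.03 elsewhere), and 3 genes of the Y chromosome (Eif2s3y, Kdm5d, Uty) marked the other 5 arrays. In the arrays without their signal these 4 genes read 3.50 to 4.25, which serves below as a rough guide to the level of an absent transcript, since background differs between probe sets. Basal and suprabasal keratinocyte genes were bright in every array, with list means of 9.75 to 10.95 and 10.33 to 11.03, and genes of muscle and fat were bright at day 0 as well.

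The genes lie in 1 cluster on mouse chromosome 4. In the RefSeq gene order of GRCm38.p6, which is of C57BL/6J, the cluster holds 11 Skint genes in the order Skint8, Skint7, Skint1, Skint4, Skint3, Skint9, Skint2, Skint10, Skint6, Skint5 and Skint11. Promoter stretches, from 250 bases before to 50 after an annotated start, were found in RefSeq for all 10 listed genes (11 starts, GRCm38.p6). They were poor in G and C (35.3% to 44.3%). The pair most alike was Skint6 and Skint5, with 89.7% identity over a global alignment, against a median of 51.7% over 54 pairs; neither of the 2 has a probe set of its own, and likeness beyond these stretches was not measured. Among measured genes the closest pairs were Skint10 and Skint11 (60.3%) and Skint9 and Skint10 (58.5%). A global alignment can miss likeness at shifted positions. Skint9 and Skint11 had the lowest identity (44.0%) but share a run of 18 bases, which is not marked below. Below are the stretches of the members whose values carried the results. These members are Skint10, which was low in every day 6 array, the 2 measured genes closest to it by this identity, and Skint3 and Skint4, which were highest in the same arrays. Capitals mark the longest run shared by Skint10 and Skint11 (20 bases), by Skint9 and Skint10 (19 bases), and by Skint3 and the second start of Skint4 (18 bases).
Skint10 (chr4:112774812-112775111, minus strand): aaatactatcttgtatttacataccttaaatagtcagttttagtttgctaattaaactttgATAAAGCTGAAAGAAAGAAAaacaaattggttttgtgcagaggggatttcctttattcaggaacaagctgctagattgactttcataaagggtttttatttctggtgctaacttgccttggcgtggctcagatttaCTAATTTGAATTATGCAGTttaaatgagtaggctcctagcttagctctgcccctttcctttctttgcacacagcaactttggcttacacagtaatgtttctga
Skint11 (chr4:114163134-114163433, plus strand): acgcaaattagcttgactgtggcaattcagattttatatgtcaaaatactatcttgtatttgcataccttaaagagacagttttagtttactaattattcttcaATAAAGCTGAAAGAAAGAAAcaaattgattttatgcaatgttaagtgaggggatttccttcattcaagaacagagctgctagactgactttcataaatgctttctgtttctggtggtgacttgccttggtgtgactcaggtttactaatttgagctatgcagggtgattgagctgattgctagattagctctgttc
Skint9 (chr4:112433936-112434235, minus strand): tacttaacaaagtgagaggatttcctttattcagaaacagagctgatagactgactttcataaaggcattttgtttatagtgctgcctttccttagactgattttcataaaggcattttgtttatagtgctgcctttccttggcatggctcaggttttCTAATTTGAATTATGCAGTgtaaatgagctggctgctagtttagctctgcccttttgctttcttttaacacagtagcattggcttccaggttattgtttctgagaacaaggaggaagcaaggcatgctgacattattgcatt
Skint3 (chr4:112231995-112232294, plus strand): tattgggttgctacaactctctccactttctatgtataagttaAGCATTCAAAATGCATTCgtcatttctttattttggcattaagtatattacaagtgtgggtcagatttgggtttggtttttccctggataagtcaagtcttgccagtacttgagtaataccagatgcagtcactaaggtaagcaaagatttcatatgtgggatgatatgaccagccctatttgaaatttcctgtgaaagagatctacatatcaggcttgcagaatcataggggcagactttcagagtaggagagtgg
Skint4, second annotated start (chr4:112081220-112081519, plus strand): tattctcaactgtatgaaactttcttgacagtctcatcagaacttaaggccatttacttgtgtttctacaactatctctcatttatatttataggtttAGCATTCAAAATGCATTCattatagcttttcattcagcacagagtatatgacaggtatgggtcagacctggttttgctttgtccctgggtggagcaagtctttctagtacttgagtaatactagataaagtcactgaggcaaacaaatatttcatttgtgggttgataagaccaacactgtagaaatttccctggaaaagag

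A few short motifs were looked for in these stretches, on both strands and without overlap between motifs being removed. The AP-1 motif TGANTCA stood in 1 of 11 Skint stretches, that of Skint11, and in 7.81% of all 32851 RefSeq stretches of the same length. The interferon response motif, GAAA repeated after a gap of 2 bases, also stood in that of Skint11 alone, and in 3.44% of all. TTCNNNGAA, the gamma-activated site, stood in that of Skint9 alone, and in 8.30% of all. TATAAA stood in 7 of the 11, against 13.6% of all. The stretches of Skint10 and Skint3 did not hold it. The Skint stretches are poor in G and C and come from related genes. All stretches were not matched to them in base composition, so nothing is read from this share. These are matches of letters only.

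Skint10 was the member that followed the day of treatment. It read 3.52 and 3.91 (KO) and 3.66 and 3.38 (WT) on day 6, against 8.30 and 8.31 (KO) and 8.12 (WT) on day 0. The days did not overlap: 4.21 log2 units separated the highest day 6 array from the lowest day 0 array. At day 0 the 3 arrays lay close together, and at day 6 all 4 lay at or under the level of absent transcripts. The fitted day difference was -4.60 ± 0.15 (SE) over both genotypes; because the day 6 values sit at the floor of the array, its exact size and fold are not known. In tissue RNA, fewer cells of a type and less RNA per cell cannot be told apart.

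**Figure D1:**
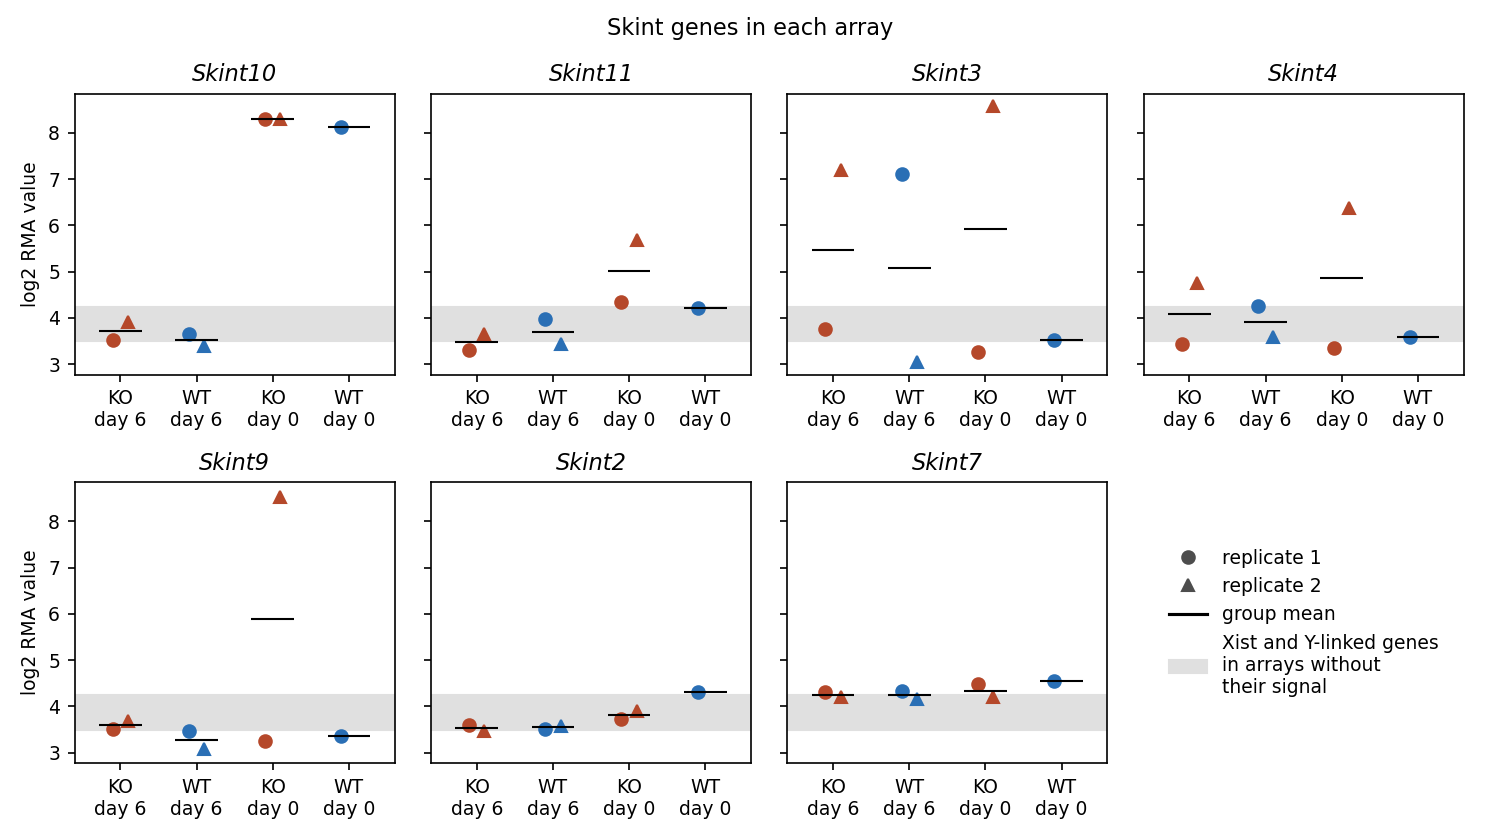
Log2 RMA value (vertical axis) of the 7 Skint genes in each array, by genotype (KO, Iqgap1 knockout; WT, wild type) and day; symbols give the replicate, bars the group mean, and the grey band the level of absent transcripts (3.50 to 4.25, from sex-linked genes). Skint10 separates the days, Skint3 is above 7 in 3 arrays of 3 groups, and Skint9 is above the band in 1 array.

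Skint11, whose promoter stretch was closest to that of Skint10, had a day difference that did not pass the test. It read 3.31 and 3.65 (KO) and 3.97 and 3.43 (WT) on day 6, against 4.36 and 5.68 (KO) and 4.22 (WT) on day 0. No day 6 array reached a day 0 array, but the gap was only 0.24, and the knockout replicate at 5.68 stood apart from its partner by 1.32. The fitted day difference of -1.13 ± 0.38 (SE) had a limma adjusted p = 0.110, and that in knockout alone was -1.54 ± 0.42 (SE, limma adjusted p = 0.0533). The knockout difference was -2.20 without day 0 replicate 1 (limma adjusted p = 0.0105) and -0.87 without replicate 2 (limma adjusted p = 0.155). Each of these rests on 1 knockout array of day 0, which is assumed to vary like the other groups.

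Skint2 and Skint7 stayed near the floor in every array. Skint2 read 3.61 and 3.47 (KO) and 3.52 and 3.58 (WT) on day 6, against 3.73 and 3.91 (KO) and 4.32 (WT) on day 0. Its days did not overlap, by 0.13, with a fitted difference of -0.48 ± 0.15 (SE, limma adjusted p = 0.0883). Skint7 ranged from 4.15 to 4.54 over the 7 arrays, a range matched or exceeded by 17442 genes. Its day difference was -0.17 ± 0.14 (SE, limma adjusted p = 0.489), and its days overlapped.

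Leaving aside Skint10, whose day change was among the choosing values, 0 of the other 6 members passed the threshold (limma adjusted p under 0.05) over both genotypes, in knockout or in wild type. With Skint10 the count of lower members is 1 of 7 in each, a description from which nothing is read. Over all genes and both genotypes, 5.62% were lower and 5.85% higher (11.5% together). The day 6 arrays lay wholly below the day 0 arrays in Skint11 and Skint2, by 0.24 and 0.13, and in Skint10, a choosing value. Of all genes 9.66% did so. The day 6 arrays lay wholly above in 0 members, against 11.9% of all genes. Within knockout 9.07% of all genes were lower and 7.24% higher (16.3% in either direction), and within wild type 3.61% were lower and 3.51% higher (7.11% in either direction). The median fitted day difference of the members, Skint10 included, was -0.48, against 0.06 over all genes, and nothing is read from it.

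In the other 3 members the 2 knockout arrays of day 0 lay further apart than any 2 group means. For Skint9 the replicates of day 6 differed by only 0.17 (KO) and 0.39 (WT). Skint3 read 3.76 and 7.19 (KO) and 7.11 and 3.05 (WT) on day 6, against 3.26 and 8.58 (KO) and 3.52 (WT) on day 0. Values above 7 occurred in 1 array of each group with 2 arrays, and the other 4 arrays lay at or under the level of absent transcripts. No array lay between 3.76 and 7.11. The labels give the mixed C57BL/6 and 129 background for all mice and not which of these each mouse carried at the Skint cluster, and its part in the values of Skint3, Skint4 and Skint9 was not tested.

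Skint9 was high in a single array. It read 3.51 and 3.68 (KO) and 3.47 and 3.08 (WT) on day 6, against 3.26 and 8.53 (KO) and 3.36 (WT) on day 0. The array at 8.53, knockout day 0 replicate 2, is the one in which Skint3 was highest.

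Skint4 read 3.43 and 4.75 (KO) and 4.27 and 3.58 (WT) on day 6, against 3.36 and 6.38 (KO) and 3.60 (WT) on day 0. Its 3 highest arrays were the 3 in which Skint3 was high, in the same order. The lowest of these Skint4 values, 4.27, was barely above the level of absent transcripts. Among the Skint genes of the cluster, Skint4, Skint3 and Skint9 are consecutive. The cluster also spans 10 other RefSeq genes, 0 of them measured, whose places are not given here.

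Few genes on the array split replicates as widely. Between the knockout replicates of day 0, the difference in Skint3 was 5.32, the largest of all 19937 genes, that in Skint9 was 5.27, the next largest, and that in Skint4 was 3.02, reached by 7 genes, itself included. The median gene differed by 0.14 there. Between the knockout replicates of day 6, Skint3 differed by 3.44 (reached by 11 genes, itself included) and Skint4 by 1.32 (reached by 145), whereas Skint9 differed by 0.17, the median of all genes. Between the wild-type replicates of day 6, Skint3 differed by 4.06, with the higher value in replicate 1 (reached by 10 genes). Skint10 differed by 0.01 between the knockout replicates of day 0, and 95.8% of genes differed by as much or more.

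**Figure D2:**
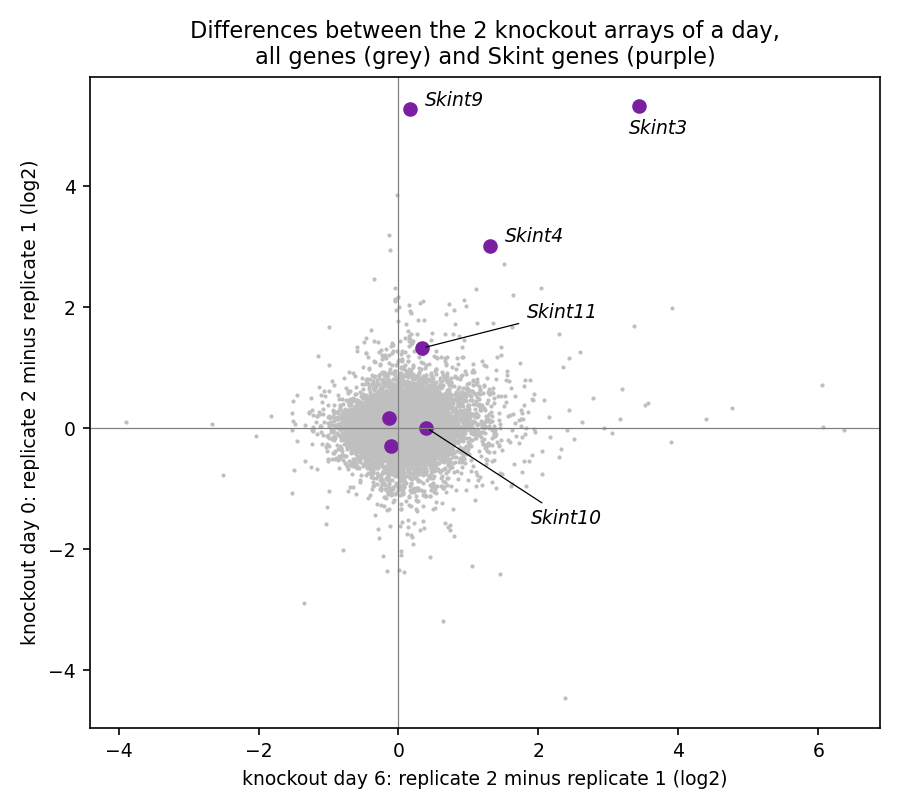
Difference between replicate 2 and replicate 1 (log2) of knockout at day 6 (horizontal axis) and at day 0 (vertical axis), 1 point a gene; grey points are all 19937 genes and purple points the 7 Skint genes. Skint3 (3.44 and 5.32) is far from the origin on both axes, Skint9 (0.17 and 5.27) on the day 0 axis only, and Skint10 (0.39 and 0.01) lies in the cloud of all genes.

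The day differences of these 3 genes had wide errors and did not pass. They were 0.36 ± 1.62 for Skint3, -0.34 ± 0.74 for Skint4 and -1.41 ± 1.19 for Skint9 (SE), with limma adjusted p of 0.918, 0.826 and 0.519. Each depended on single arrays. Without knockout day 0 replicate 2 the difference was 1.89 for Skint3, 0.53 for Skint4 and 0.13 for Skint9. In knockout alone the difference of Skint9 was -2.30 ± 1.44 (SE, limma adjusted p = 0.357). Without replicate 1 of day 0 it was -4.93 (limma adjusted p = 0.000536), a value that rests on the 1 array at 8.53, which is assumed to vary like the other groups.

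Some other genes also stood apart in the array in which Skint3, Skint9 and Skint4 were highest. A list of 9 measured interferon-stimulated genes, drawn up after these values were seen, averaged 8.84 in KO replicate 2 of day 0, 7.22 in KO replicate 1 and 6.39 in the WT array of that day. The list includes Rsad2, Dhx58 and Xaf1, which are given below as near in profile to Skint members. Its mean is thus not a separate observation from that likeness. On day 6 it averaged 5.26 and 6.68 (KO) and 5.54 and 5.71 (WT), so in wild type it was lower in the replicate with high Skint3. The chemokine gene Cxcl9, not on that list, went the other way at day 0, with 9.78 in KO replicate 1 and 6.59 in KO replicate 2. Activated keratinocyte genes had a mean of 9.30 in KO replicate 2 of day 0, against 8.11 in its partner and 8.12 in wild type. At day 6 that list stood at 11.79 to 12.05, while Skint9 stood at 3.08 to 3.68. Their part in the values of the Skint genes was not tested. Of the 3 arrays high in Skint3, 1 had Xist signal and 2 had not.

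Genotype was compared within each day, over both days, and in the size of the day change. In each of these 4 comparisons 0 of 7 members were past the threshold in either direction. For knockout against wild type at day 6, 0 of 19937 genes (0%) passed in limma, with 1182 genes and 0 members at an unadjusted p under 0.05. Over both days likewise 0 genes (0%) passed, with 3729 genes and 0 members at an unadjusted p under 0.05; averaging the within-day differences from the fit of 4 group means called 2355 genes and 0 members. At day 0, against the single wild-type array, 8.53% of genes were higher and 5.86% lower in knockout (14.4% together). Skint2 alone of the members had an unadjusted p under 0.05 there, with a difference of -0.50 ± 0.19 (SE, limma adjusted p = 0.139). The single wild-type array of day 0 is also the one with Xist signal on that day. With a term for that signal, which day 6 allows to be fitted, 682 genes passed at day 0 in place of 2869, and again 0 members.

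For Skint10 only day 0 bears on genotype, since all 4 day 6 arrays lay at or under the level of absent transcripts. Knockout minus wild type was 0.19 ± 0.20 (SE) at day 6, with an interval of -0.28 to 0.65, and 0.19 ± 0.24 (SE) at day 0, with an interval of -0.39 to 0.76. Limma adjusted p was 0.900 at day 6 and 0.648 at day 0. The day difference was -4.59 ± 0.20 in knockout and -4.60 ± 0.24 in wild type (SE). The difference between these changes was 0.0034 ± 0.31 (SE), with a 95% interval of -0.73 to 0.74 (limma adjusted p = 0.998); with day 6 at the floor in both genotypes, this interval sets no bound on a genotype effect. For the other 6 members the change with day did not differ between genotypes past the threshold either (0 of 6, with 1.76% of genes higher and 1.35% lower in that test, 3.1% together), with limma adjusted p of 0.389 to 0.831. Unadjusted p was under 0.05 in that test for 3459 genes and 0 members. With 7 arrays, and 1 of wild type at day 0, these counts of 0 do not show that the genotypes were alike.

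**Figure D3:**
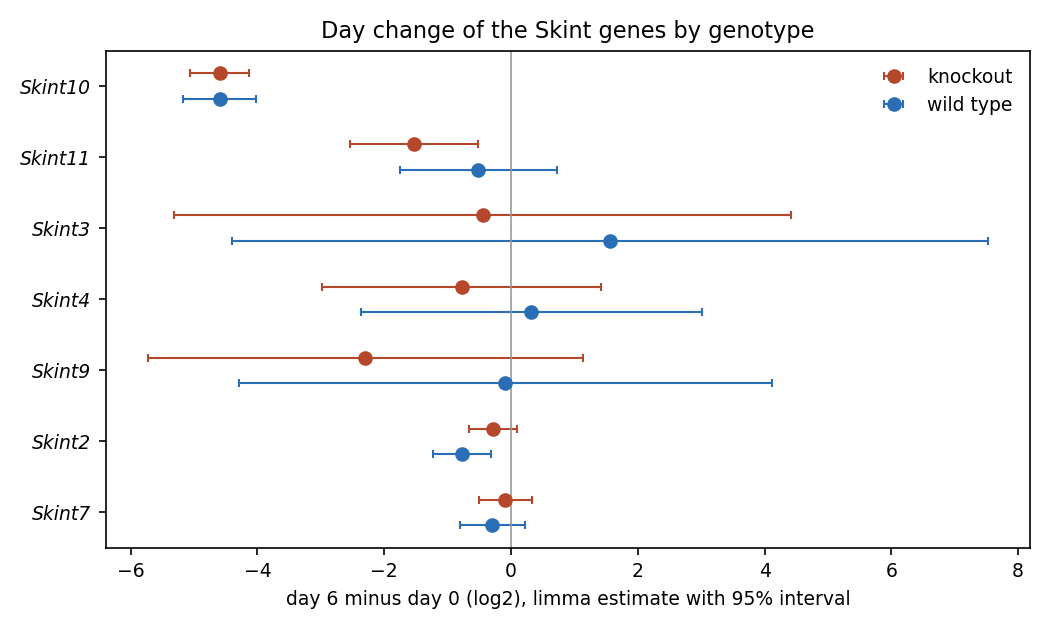
Fitted day 6 minus day 0 difference (log2, horizontal axis) of each Skint gene in knockout (above) and wild type (below); bars are 95% intervals from limma's moderated variances, and the wild-type estimate rests on 1 day 0 array. The 2 estimates of Skint10 (-4.59 and -4.60) nearly coincide, and the bars of Skint3, Skint4 and Skint9 span 0 in both genotypes. The bars of Skint10 describe a choosing value and are no test of it.

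The profiles of the members were unlike one another. Likeness was taken as the root mean square difference (in log2 units) between profiles over the 7 arrays, each centred on its own mean. The pair most alike was Skint2 and Skint7 (0.22), which hardly varied, and the least alike was Skint3 and Skint10 (3.13). The measure follows amplitude as well as shape: Skint4, with a root mean square deviation of 1.01 from its own mean, was at 1.32 from Skint3, with 2.15, although both were highest in the same 3 arrays. Skint4 was at 0.67 from Skint11 and 0.98 from Skint9. Skint10 and Skint11 differed by 1.77.

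Outside the family, the genes with profiles nearest to Skint10 were Pvalb (0.36), the parvalbumin of fast muscle fibres, Itm2a (0.39) and Adipoq (0.47), the fat hormone adiponectin. Because the measure follows amplitude and Skint10 was at the floor on day 6, this nearness depends on the size of the measured fall. A link of Skint10 to muscle or fat was not tested. Pvalb read 6.91 and 7.63 (KO) and 6.75 and 7.55 (WT) on day 6, against 12.46 and 12.10 (KO) and 11.76 (WT) on day 0. Nearest to Skint4 were the antiviral gene Rsad2 (0.24), Slfn1 (0.40) and Dhx58 (0.49). Rsad2 read 6.06 and 7.56 (KO) and 6.48 and 6.16 (WT) on day 6, against 6.38 and 9.09 (KO) and 6.03 (WT) on day 0. Nearest to Skint11 were Nrcam (0.19), Xaf1 (0.22) and Phf11d (0.23). Among named genes, with predicted genes, small RNAs and receptor families left out, Skint3 and Skint9 had no near neighbour by this measure. Closest to Skint3 were Rsad2 (1.39), Slfn4 (1.42) and Slfn1 (1.54). Closest to Skint9 were Myod1 (0.86), Atp1b4 (0.88) and Ifi209 (0.89). A probe set without a gene symbol lay nearer to Skint9 (0.36). The flat profiles of Skint2 (nearest Osbpl8, Usp16 and Dhx36, 0.06 to 0.07) and Skint7 (nearest Zfp768, Dnaja2 and Sec14l5, 0.03 to 0.05) had close matches.

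Among the 5 measured genes nearest on either side, the range over the 7 arrays was 0.29 to 2.57 log2 units, against 5.53 for Skint3, 5.45 for Skint9, 4.93 for Skint10 and 3.02 for Skint4. The ranges of Skint11 (2.37), Skint2 (0.85) and Skint7 (0.39) fell within those of the flanking genes. Bend5 (1.98 ± 0.21, limma adjusted p = 0.00355) and Spata6 (0.88 ± 0.21, SE, limma adjusted p = 0.0427) rose with day, 0 fell and 8 did not pass. Slc5a9, the measured gene next to the Skint8 end, ranged over 1.39 and had a day difference of 0.21 ± 0.26 (SE, limma adjusted p = 0.677). Trabd2b, next to Skint11, had a day difference of -0.67 ± 0.26 (SE, limma adjusted p = 0.158).

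Among 15 measured butyrophilin and B7 relatives of the Skint genes, 2 rose with day, 1 fell and 12 did not pass, with a median day difference of 0.04. The T cell ligand genes Icosl and Cd80 rose by 0.97 ± 0.20 and 1.04 ± 0.26, and Cd86 fell by 1.45 on the log2 scale (SE 0.20). Their limma adjusted p were 0.0265, 0.0496 and 0.00850. Cd276 was at 0.90 ± 0.26 (SE, limma adjusted p = 0.0748).

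The family takes its name from intraepithelial T cells, and a link of the measured members to T cells was not tested. Of 25 measured T cell and dendritic epidermal T cell genes, 2 rose, 3 fell and 20 did not pass (median -0.25). The T cell receptor subunit gene Cd3g read 4.79 and 5.10 (KO) and 4.42 and 4.66 (WT) on day 6, against 6.50 and 7.05 (KO) and 5.78 (WT) on day 0. Its days did not overlap, and it fell by 1.59 on the log2 scale (SE 0.21, limma adjusted p = 0.00667). Thy1, a surface protein of T cells and other cells, fell by 1.32 and the cytotoxic granule gene Nkg7 fell by 1.07. Jaml, a receptor by which dendritic epidermal T cells sense keratinocytes, rose by 1.68 ± 0.17 (SE, limma adjusted p = 0.00289), and Cd5 rose by 1.02. Which cells of the tissue carried these RNAs was not tested. The mean of the list was 5.59 to 5.77 over the day 6 arrays and 5.66 to 6.10 over the day 0 arrays.

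Keratinocyte ligands of receptors on those T cells gave 0 rises, 1 fall and 6 genes that did not pass among 7 measured (median 0.31). Cxadr, the ligand of Jaml, fell by 0.56 on the log2 scale (SE 0.13, limma adjusted p = 0.0401). Cdh1, encoding E-cadherin, was at 0.44 ± 0.12 (SE, limma adjusted p = 0.0666), H60b, a ligand of the receptor NKG2D, at 1.00 ± 0.36 (SE, limma adjusted p = 0.130), and the cytokine gene Il15 at -0.34 ± 0.16 (SE, limma adjusted p = 0.252).

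Mean levels of the keratinocyte lists overlapped between the days or were higher at day 6, while Skint10 was lower. Suprabasal genes had list means of 10.33 to 10.95 at day 6 and 10.56 to 11.03 at day 0 (13 measured, 2 rose, 2 fell, median 0.36), and basal genes 10.75 to 10.95 at day 6 and 9.75 to 10.78 at day 0 (10 measured, 3 rose, 1 fell, median 0.73). Within them, the keratin gene Krt77 fell by 6.27 and Krt15 by 3.47, while Casp14 rose by 1.99 ± 0.21 and Krt14 by 0.72 ± 0.15 (SE). Of 10 activated keratinocyte genes 9 rose and 0 fell (median 4.04), among them the defensin gene Defb14 (5.89 ± 0.26) and the alarmin gene S100a8 (4.23 ± 0.30, SE).

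Markers of several other cells did fall on the same days as Skint10. Means over the 8 adipocyte genes were 6.44 to 7.32 at day 6 and 9.60 to 10.37 at day 0 (7 fell, 0 rose), and over the 8 skeletal muscle genes 8.55 to 9.45 at day 6 and 11.26 to 12.40 at day 0 (7 fell, 0 rose). Of 8 fibroblast genes 4 fell and 0 rose, of 9 upper hair follicle genes 3 fell and 0 rose, and of 10 genes of Langerhans cells and dendritic cells 5 fell, with 0 rises, including Cd207, the Langerhans cell lectin (-2.63 ± 0.24, SE). Of 8 sebaceous gland genes 4 fell and Fabp5 rose. The means of that list at day 6 were 7.29 and 9.41 (KO) and 7.54 and 9.42 (WT), apart by replicate number. Skint10, at the floor in every day 6 array, could not show such a split. The part of these cells in the level of Skint10 was not tested.

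**Figure D4:**
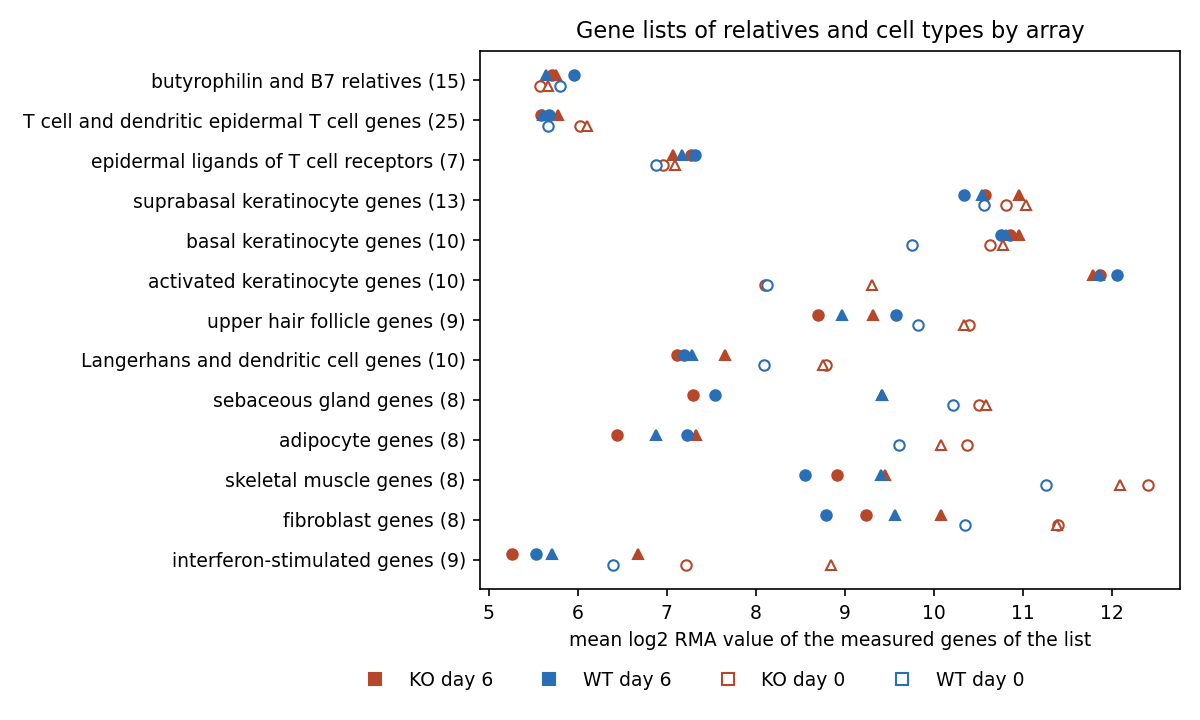
Mean log2 RMA value (horizontal axis) of the measured genes of each list, with their number in brackets, 1 symbol an array; filled symbols are day 6 and open symbols day 0, red is knockout and blue wild type, circles are replicate 1 and triangles replicate 2. The lists of fat, muscle, fibroblast, sebaceous gland, upper hair follicle and Langerhans cell genes lie wholly lower at day 6. Basal and suprabasal keratinocyte lists overlap between the days, and the activated keratinocyte list lies higher at day 6. The open red triangle, knockout day 0 replicate 2, is the highest of all arrays for interferon-stimulated genes (8.84).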

How the data were processed

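The 7 mouse tissue samples were each hybridised to 1 Affymetrix Mouse Gene 1.0 ST array. The deposited log2 values are the authors' RMA output, with R 2.11.1 named in the submitters' processing notes; RMA corrects background, equalises arrays by quantiles and summarises probes, which compresses low values. Its other settings, the genome build and any batch are not given in the sources used here. Sample titles gave each array its group and replicate number. Of 34760 probe sets, 21640 carried 1 gene symbol in the platform's annotation, and the brightest per gene gave 19937 genes. Family members are close paralogues, and sharing of probes between them was not tested.

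All tests are limma's (version 3.58.1, R 4.3.3, lmFit and eBayes) and two-sided; p-values were adjusted by Benjamini-Hochberg across the 19937 genes and called under 0.05. An additive fit gave the day change and the genotype difference pooled across days (4 residual degrees of freedom), the rest from 1 fit of 4 group means (3), where the lone WT array of day 0 is assumed to vary like the rest. The fits were tested on simulated data. The 12 gene lists (131 of 142 genes measured), the members and the tests were chosen with earlier results of these data known. All members are named, Iqgap1, Xist and 3 Y-linked genes are named as checks, up to 4 genes per list by smallest p of the day change (and further passing genes where few passed, named after their values were seen), the 3 likest profiles and the 5 nearest measured neighbours on each side, predicted genes left unnamed. Promoter sequences are those of RefSeq (GRCm38.p6), aligned with Biopython 1.88. The number of arrays limits precision. The alternatives tried were another fit, all probe sets, a filter on low values, trended variances, median centring, other probe sets, Xist signal, a replicate block and leaving out each array.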

Additional observations from a re-analysis of the deposited data

How the results depend on the processing

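The count of Skint genes lower at day 6 over both genotypes was 1. That 1 is Skint10, whose day change was a choosing value, so its place in these counts is only described. The count became 2, with Skint2 added, when the 4 group means were fitted (limma adjusted p = 0.0292) or variances were trended (limma adjusted p = 0.0370). In wild type trended variances likewise gave 2. In knockout the count ranged from 1 to 3 over the fits without 1 array, with 3 (Skint10, Skint11 and Skint9) when replicate 1 of day 0 was left out; that omission also gave 1 gene, Skint9, higher in knockout at day 0 (5.17 in place of 2.53; -0.11 without replicate 2; counts of 0 to 1) and 1 with a lower day change in knockout (-4.85 in place of -2.21; 0.43 without replicate 2; counts of 0 to 1). Deviations of same-numbered arrays correlated by 0.09 between knockout of day 0 and of day 6. The correlation was 0.04 between knockout of day 0 and wild type of day 6, and 0.23 between the genotypes at day 6. These low values do not show that the arrays were unpaired. With a replicate block the knockout day count was 2, with Skint11 added (limma adjusted p = 0.0484), and 3523 genes passed in place of 3251; over both genotypes 1745 passed in place of 2286. Total calls for the day change were 3742 with the 4 group means and 727 to 3251 without 1 array; without the wild-type array of day 0 (3251) or both arrays with Xist signal (4027), knockout alone gives the day change. Without 1 array they were 1381 to 4027 in knockout, 1040 to 2209 in wild type, 0 to 43 for genotype at day 6, 0 to 836 over both days (2355 with the 4 group means), 1239 to 4328 at day 0 (682 with a term for Xist signal) and 143 to 1038 for the genotype difference in the day change. Some values turned sign: the day difference of Skint3 was -0.44 without the 2 arrays with Xist signal, which is its knockout value, and -0.77 to 1.89 without 1 array, Skint4 -0.98 to 0.53 and Skint9 -2.51 to 0.13 without 1 array; in knockout Skint9 ranged from -4.93 to 0.34. For Skint10 the genotype difference at day 6 was -0.0082 to 0.39 without 1 array; its genotype difference in the day change was -0.14 with median-centred arrays, -0.14 with a term for Xist signal, and -0.19 to 0.20 without 1 array. The day difference of Skint10 lay between -4.69 and -4.50 over all 16 alternatives, which describes the choosing value and tests nothing. The filter at a mean of 5 left out every member but Skint3 and Skint10. The fits that leave out the wild-type day 0 array, or both arrays with Xist signal, could not give the day change in wild type, genotype at day 0 or the genotype difference in the day change.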

Other observations

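Outside the genes tested, 13120 probe sets carried no gene symbol or several. The one nearest in profile to Skint3, which names several genes, read 6.69 and 12.07 (KO) and 12.21 and 6.62 (WT) on day 6, against 5.16 and 12.03 (KO) and 5.31 (WT) on day 0, high in the same 3 arrays as Skint3 (root mean square difference 1.20). The one nearest to Skint9, which carries no symbol, had 7.50 in knockout day 0 replicate 2 and 2.67 to 3.41 in the other 6 arrays (0.36). Both were chosen after their values were seen.

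Beside Skint3, Skint9 and Skint4, the named genes with the widest gaps between the knockout replicates of day 0, also chosen after their values were seen, were Srsy (-4.47, replicate 2 minus replicate 1), the keratin gene Krt6b (3.86), the muscle stress gene Ankrd1 (3.20), the chemokine gene Cxcl9 (-3.19) and Gsdmc (2.95). Krt6b and Gsdmc stood at 12.64 to 12.70 and 9.79 to 10.46 in the day 6 arrays.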
